A study of Mus musculus with 7 samples.

Results

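Id1, Id2, Id3 and Id4, together with the ligand gene Bmp4 and the feedback genes Smad6, Smad7 and Bambi, were followed over a light-induced Brn2 time course in mouse embryonic stem cells. These 8 genes were taken by name, as the rows of the deposited table whose RefSeq transcript belongs to them, out of 20385 genes that could be named in that table, and each had 1 row. Bone morphogenetic proteins (BMPs) bind serine/threonine kinase receptors that phosphorylate Smad1, Smad5 and Smad9, and these enter the nucleus with Smad4 and switch on target genes, of which the Id genes are the best known. Id proteins have a helix-loop-helix but no DNA-binding region, and hold E proteins away from tissue-specific partners such as the proneural factors. The same signal induces Smad6, Smad7 and Bambi, which dampen it, and in mouse embryonic stem cells BMP acting through Id genes is known to favour self-renewal over neural fate.

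The cells were E14 embryonic stem cells grown in 2i, a medium with inhibitors of MEK and GSK3, and every library came from cells with the Brn2-RFP GAVPO induction cassette, in which the light-switched activator GAVPO drives Brn2 (Pou3f2, a POU factor of neural progenitors) with a red fluorescent protein. Light from an LED at 300 µW was given for 0, 2, 4, 6, 14, 24 or 48 h, with 1 library per time and 7 in all. No time has a replicate, so a time and its library cannot be told apart, and the labels name no line without the cassette. The values imply 7.06 to 16.2 M reads per library. Pou3f2 was at 77.0 (0 h), 36.9 (2 h), 119 (14 h) and 7.19 (48 h), so the labels of time do not order its level. Stem cell markers were abundant in every library (all 8 had a mean value of at least 1, summing to 1010 to 1749), and those of mesoderm were low (0 of 8 had a mean of at least 1, summing to 1.29 to 2.45). Levels in bulk RNA do not tell fewer cells of a type from less RNA per cell.

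Deposited values behave as reads per kilobase of genomic span, introns included, scaled to library size, and are given below as values. The plot of the 8 genes by library shows that 5 of them, the 4 Id genes and Bmp4, were lowest in the library labelled 0 h and higher at 2 h. Their intervals are exact 95% Poisson intervals on reads recovered from the values and cover counting error only.

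**Figure D1:**
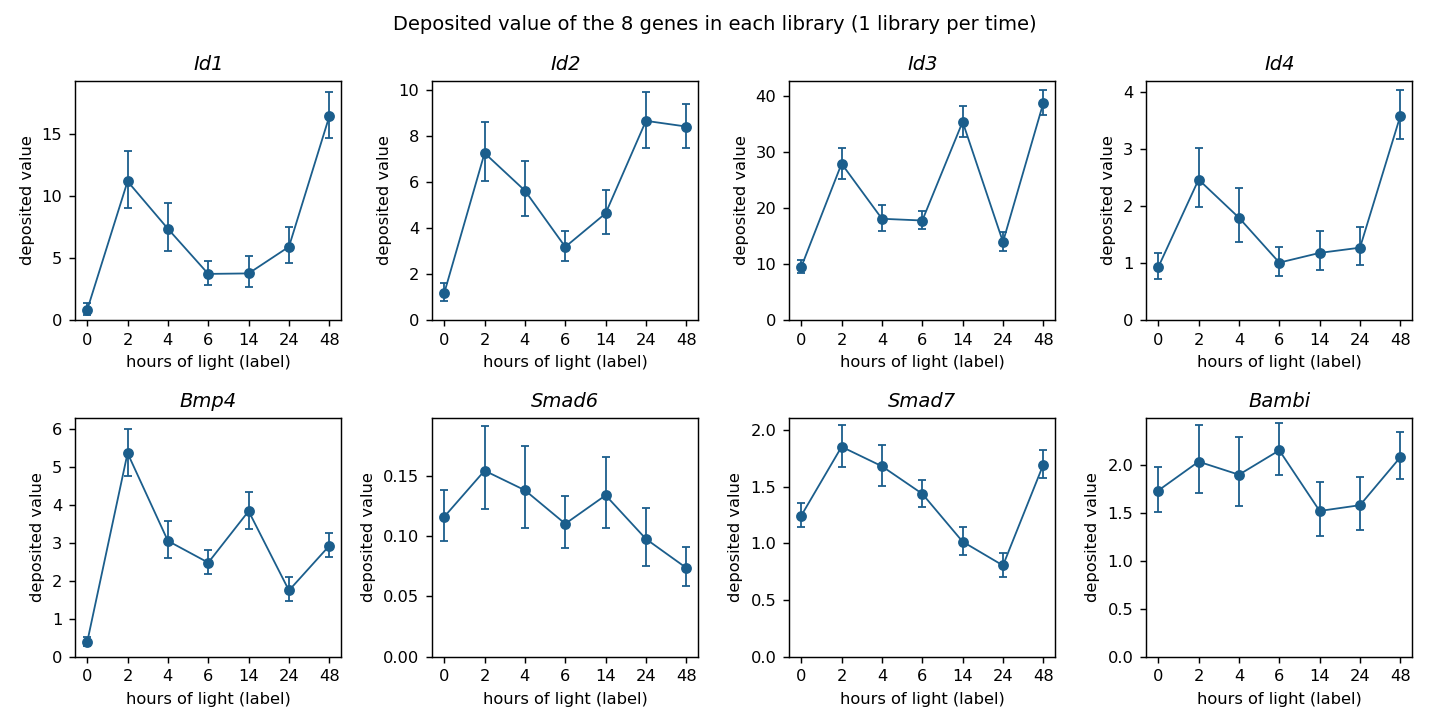
Deposited value (y axis, linear, from 0) of each of the 8 genes at each labelled hour of light (x axis, ordered and not to scale), 1 library per point, with exact 95% Poisson intervals that cover counting error only. Id1, Id2, Id3, Id4 and Bmp4 are lowest at 0 h, where Id1 is at 0.828 and Bmp4 at 0.389, while Smad6, Smad7 and Bambi are lowest at 48, 24 and 14 h.

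Among the dominant-negative helix-loop-helix genes, Id1 had the widest range as a fold, its highest value being 19.9 times its lowest, while Id3 spanned more in value. The value of Id1 was 0.828 (0 h), 11.2 (2 h), 7.37 (4 h), 3.73 (6 h), 3.77 (14 h), 5.92 (24 h) and 16.5 (48 h), from about 14, 99, 60, 59, 40, 69 and 309 reads. It was thus high at 2 h, low again at 6 and 14 h and highest at 48 h, and none of the later libraries came down to the 0 h value. Id2, known for restraining E proteins in lymphoid and neural cells, was 1.17 (0 h), 7.27 (2 h), 5.64 (4 h), 3.19 (6 h), 4.65 (14 h), 8.67 (24 h) and 8.43 (48 h). It followed Id1 up to 6 h but had its second high at both 24 and 48 h. Id3 was 9.46 (0 h), 27.9 (2 h), 18.1 (4 h), 17.8 (6 h), 35.4 (14 h), 13.9 (24 h) and 38.8 (48 h). Unlike the other Id genes it stood high at 14 h and low at 24 h. Id4, the Id gene best known from neural progenitors, was 0.927 (0 h), 2.47 (2 h), 1.80 (4 h), 1.01 (6 h), 1.18 (14 h), 1.27 (24 h) and 3.58 (48 h). Its 0 h and 6 h values (about 66 reads in each library) lay inside each other's counting intervals. The intervals of its ratios of 14 h (0.877 to 1.88) and 24 h (0.958 to 1.99) to 0 h also included 1. Its 0 h library is therefore not set apart from 6, 14 or 24 h.

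Bmp4, the ligand of the pathway, was 0.389 (0 h), 5.36 (2 h), 3.05 (4 h), 2.48 (6 h), 3.83 (14 h), 1.75 (24 h) and 2.92 (48 h). It was highest at 2 h, and its course from 6 to 48 h, up at 14 h and down at 24 h, was that of Id3. Smad7, an inhibitory Smad that also answers TGF-beta and Nodal signals, was 1.24 (0 h), 1.85 (2 h), 1.68 (4 h), 1.44 (6 h), 1.01 (14 h), 0.805 (24 h) and 1.69 (48 h). Its level without light lay in the middle of its range, and its low point was at 24 h. Bambi, a membrane pseudoreceptor without a kinase domain, was 1.73 (0 h), 2.04 (2 h), 1.90 (4 h), 2.15 (6 h), 1.52 (14 h), 1.58 (24 h) and 2.08 (48 h). The highest of these was 1.42 times the lowest, the narrowest range of the 8 genes. Smad6, the inhibitory Smad most selective for BMP receptors, was 0.116 (0 h), 0.154 (2 h), 0.138 (4 h), 0.110 (6 h), 0.134 (14 h), 0.0976 (24 h) and 0.0736 (48 h), from about 67 to 119 reads. It was lowest at 48 h, where Id1, Id3 and Id4 were highest; of all genes tested, 26.5% were lowest and 24.6% highest in that library. Of the 8 genes, Smad6 alone fell short of the mean value of 1 required for the tests below, so 7 were tested.

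Between 0 and 2 h, 5 of the 7 tested genes were at least 2-fold higher and 0 were at least 2-fold lower. Over all 6427 genes of mean value at least 1, 247 (3.84%) were at least 2-fold higher in this comparison, and the median log2 ratio was -0.05. Bmp4 was 13.8-fold higher (95% counting interval 10.01 to 19.8) and Id1 13.5-fold (7.86 to 26.2), the 3rd and the 4th highest ratios of all 6427. Ahead of them were Gadd45g, which is listed at 0 at 0 h, and Pou4f2 at 17.2-fold, both named after their values were seen. Id2 was 6.20-fold higher (4.32 to 9.08), the 17th highest ratio, Id3 2.95-fold (2.53 to 3.46) and Id4 2.66-fold (1.92 to 3.72). Smad7 was 1.49-fold higher (1.30 to 1.70), and the intervals of Bambi (1.17-fold, 0.941 to 1.47) and Smad6 (1.33-fold, 0.990 to 1.78) included 1. With 1 library at each time these ratios compare libraries, and no test of the conditions is possible. Beside this step, the summed value of 8 neuron markers went from 8.69 to 20.5, mostly through Tubb3 (5.40 to 13.4) and Stmn2 (1.48 to 4.19). That of 8 trophoblast markers went from 3.03 to 6.43, mostly through Tfap2c (2.55 to 5.73), with Cdx2 at 0.0318 and 0.186, while Krt7 and Tpbpa were lower. Tfap2c is counted both as a trophoblast marker and among the other BMP response genes below. The part of these markers in the result was not tested.

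**Figure D2:**
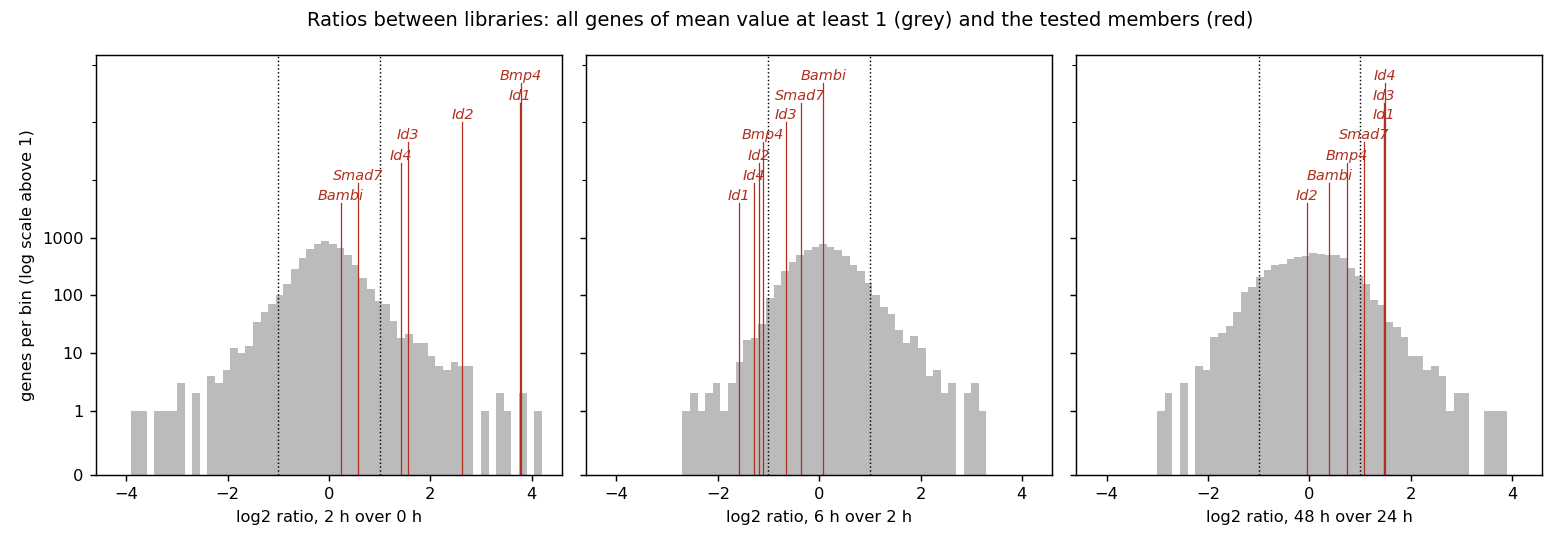
Histograms of the log2 ratio of deposited values between libraries (x axis) over genes with a mean value of at least 1 and values above 0 in both (y axis, genes per 0.15 log2 bin, log scale above 1), with each tested member as a red line whose height only places its name. Dotted lines mark 2-fold; 5 of 7 members lie beyond it at 2 h over 0 h, 4 of 7 at 6 h over 2 h on the lower side, and 4 of 7 at 48 h over 24 h.

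The promoters of Id2, Id3, Id4 and Bmp4, the members at least 2-fold higher at 2 h that have an entry in the RefSeq promoter table (build GRCm38.p6, 250 bases before to 50 after the start), are shown because these genes moved together in this step; binding was not measured. They lie at chr12:25096043-25096342 (- strand), chr4:136143572-136143871 (+ strand), chr13:48260866-48261165 (+ strand) and chr14:46390620-46390919 (- strand). Capitals mark GGCGCC, the GC-rich element bound by BMP-activated Smads, and CAGAC, the Smad-binding element, on either strand (GTCTG on the other).
Id2: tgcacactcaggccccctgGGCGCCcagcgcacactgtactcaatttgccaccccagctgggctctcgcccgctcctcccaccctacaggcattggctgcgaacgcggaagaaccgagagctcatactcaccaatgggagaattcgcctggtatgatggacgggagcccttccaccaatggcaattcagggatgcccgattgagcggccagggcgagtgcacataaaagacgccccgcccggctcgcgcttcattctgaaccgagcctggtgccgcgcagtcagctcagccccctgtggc
Id3: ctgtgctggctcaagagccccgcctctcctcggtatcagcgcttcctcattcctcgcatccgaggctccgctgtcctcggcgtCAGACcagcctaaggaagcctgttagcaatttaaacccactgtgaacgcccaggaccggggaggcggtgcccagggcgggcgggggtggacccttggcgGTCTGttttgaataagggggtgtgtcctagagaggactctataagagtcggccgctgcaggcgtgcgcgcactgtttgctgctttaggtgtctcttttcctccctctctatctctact
Id4: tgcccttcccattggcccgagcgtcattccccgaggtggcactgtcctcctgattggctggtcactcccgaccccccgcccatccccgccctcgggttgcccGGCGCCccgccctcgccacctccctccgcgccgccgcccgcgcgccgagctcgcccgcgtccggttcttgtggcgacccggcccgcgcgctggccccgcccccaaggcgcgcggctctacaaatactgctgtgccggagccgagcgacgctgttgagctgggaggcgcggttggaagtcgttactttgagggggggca
Bmp4: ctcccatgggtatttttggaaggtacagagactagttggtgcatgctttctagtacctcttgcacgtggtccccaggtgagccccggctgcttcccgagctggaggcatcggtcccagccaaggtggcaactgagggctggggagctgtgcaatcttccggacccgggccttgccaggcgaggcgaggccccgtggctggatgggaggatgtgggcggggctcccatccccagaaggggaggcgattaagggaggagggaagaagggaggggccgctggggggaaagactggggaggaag

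GGCGCC stood once in the windows of Id2 and Id4, and CAGAC in 2 places in that of Id3. Neither was found in the Bmp4 window, and ATGCAAAT, the octamer of POU factors, was in none of the 4. Of 27025 promoters of the same length, 11.96% held GGCGCC, 49.7% CAGAC and 1.75% ATGCAAAT, and no overlap between motifs arose in the windows shown. These matches are letters in a short window and not binding sites.

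At 6 h the 4 Id genes and Bmp4 stood between their 0 and 2 h values. In that library 4 of the 7 tested genes were at least 2-fold lower than at 2 h, against 1.68% of all genes, while 5.48% of all genes were at least 2-fold higher. Id1 was 3.005-fold lower (95% counting interval 2.16 to 4.23), the 17th lowest ratio of 6427, Id4 2.45-fold, Id2 2.28-fold and Bmp4 2.16-fold lower. Id3 was 1.57-fold and Smad7 1.29-fold lower. Bambi was the exception, at 1.06-fold of its 2 h value. Against 0 h, 3 of 7 were still at least 2-fold higher at 6 h, beside 5.88% of all genes: Bmp4 at 6.36-fold (4.62 to 9.21), the 4th highest ratio, Id1 at 4.504-fold (2.53 to 8.89) and Id2 at 2.72-fold (1.87 to 4.03). Id3 was 1.88-fold higher (1.62 to 2.20), and the interval of Id4 included 1 (1.09-fold, 0.761 to 1.55). With the GC trend of each library removed, Id2 and Id4 were 1.83-fold and 1.97-fold lower, so the count was 2 of 7 against 1.43% of genes, and with 1 added to each value it was 1 of 7 against 0.622%. Beside the fall from 2 to 6 h the summed trophoblast markers went from 6.43 to 3.42, of which Tfap2c from 5.73 to 2.67, and the neuron markers from 20.5 to 20.6; their part was not tested.

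From 14 to 24 h, Id3 (2.54-fold lower, from about 612 to 264 reads) and Bmp4 (2.20-fold lower) made 2 of 7 genes past 2-fold on the lower side, against 3.25% of all genes. Id2 moved the other way and was 1.87-fold higher at 24 h (1.46 to 2.41). The remaining Id genes, Id1 and Id4, were 1.57-fold and 1.08-fold higher, the latter with an interval of 0.729 to 1.58.

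Between 24 and 48 h, 4 of the 7 tested genes were at least 2-fold higher, against 7.58% of all genes. Id4 was 2.82-fold higher (2.12 to 3.77), Id3 2.78-fold (2.43 to 3.19), Id1 2.78-fold (2.12 to 3.64) and Smad7 2.10-fold (1.82 to 2.45). Bmp4 was 1.67-fold higher (1.35 to 2.07), and Id2 did not differ beyond counting error (0.971-fold, 0.811 to 1.17). The 24 and 48 h libraries differ in a trend with GC content. With it removed, Id4 was 4.43-fold, Id1 2.17-fold, Id3 2.12-fold and Id2 1.54-fold higher, and Smad7 1.51-fold, no longer past 2-fold. Bambi was 1.32-fold higher (1.07 to 1.63) as deposited and 1.93-fold with that trend removed. Beside this step the summed neuron markers went from 17.1 to 57.4 (mostly Tubb3, 10.3 to 44.6). The primitive endoderm markers went from 1.92 to 5.38 (mostly Foxa2, 1.42 to 4.62, with Gata4 and Gata6 at or under 0.0267). The fibroblast markers went from 1.62 to 3.31, mostly through Col1a2 (0.874 to 2.16) and Thy1 (0.696 to 1.05). Col1a1, Col3a1, Dcn, Lum and Postn were at or under 0.0258 in both libraries. The trophoblast markers went from 2.48 to 6.19, mostly through Tfap2c (1.97 to 4.67), with Ascl2 (0.329 to 1.14) and Cdx2 (0.0316 to 0.244) also higher. Hand1 was lower (0.0878 to 0.0361), and Elf5 and Tpbpa were at 0 in both libraries. The part of these markers in the result was not tested.

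Across the whole course, 5 of 7 genes were at least 2-fold higher at 48 h than at 0 h, against 12.8% of all genes, and the same 5 were lowest at 0 h, which held for 17.5% of all genes. For Id4 this low lay within counting error of the 6, 14 and 24 h libraries. Id1 was 19.9-fold higher (11.9 to 37.6), Bmp4 7.51-fold, Id2 7.19-fold, Id3 4.10-fold and Id4 3.87-fold. With the GC trend removed these folds were 14.0, 6.33, 11.5, 2.81 and 6.15 in that order. Smad7 was 1.36-fold higher as deposited and 0.864-fold with that trend removed, so its direction depends on this step. Bambi was 1.20-fold higher (1.006 to 1.44) as deposited and 1.75-fold with the GC trend removed. Beside this comparison the summed neuron markers went from 8.69 to 57.4, mostly through Tubb3 (5.40 to 44.6). Dcx (0.00435 to 0.107), Map2 (0.00779 to 0.116) and Elavl3 (0.151 to 1.44) were also higher. Elavl4 and Rbfox3 were higher too, but at or under 0.0179 in both libraries. Primitive endoderm went from 0.759 to 5.38, mostly through Foxa2 (0.115 to 4.62), with Sox7 and Gata6 also higher and the others lower. Fibroblast went from 0.567 to 3.31, mostly through Col1a2 (0.0450 to 2.16), and trophoblast from 3.03 to 6.19. The stem cell sum went from 1538 to 1026, with Dppa5a going from 1076 to 491. Nanog, Zfp42 and Klf4 were also lower at 48 h, and Pou5f1 (154 to 235), Sox2, Tdgf1 and Tbx3 higher. The part of these markers was not tested. Since the members were chosen with results of these data known, these counts describe the 8 genes and are no independent evidence.

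A straight line against log2 of hours plus 1 caught little of this course. In the limma trend test over all genes, 0 of 7 members passed a Benjamini-Hochberg adjusted p of 0.05, up or down, against 19 of 6427 genes called higher (0.296%) and 4 called lower (0.0622%). At an unadjusted p under 0.05 there were 2 members, Id1 and Id2, and 1388 genes (21.6%). Fitted log2 changes from 0 to 48 h on the log2(value + 1) scale, which understates changes of low values, were 1.93 ± 0.80 (SE) for Id1 (limma adjusted p = 0.204) and 1.67 ± 0.52 for Id2 (adjusted p = 0.130). They were 1.24 ± 0.57 for Id3 (adjusted p = 0.239), 0.75 ± 0.63 for Bmp4 (adjusted p = 0.496) and 0.59 ± 0.42 for Id4 (adjusted p = 0.422). Smad7 (-0.17 ± 0.28, adjusted p = 0.745) and Bambi (-0.02 ± 0.21, adjusted p = 0.954) had the smallest fitted changes. The median over the 7 was 0.75, beside 0.005 over all genes tested. A limma-voom fit on recovered reads could include Smad6 (-0.63 ± 0.44, adjusted p = 0.396), and called 0 of 8 members, against 2.24% of its 13551 genes higher and 0.812% lower. In that fit 3 of 8 members and 23.5% of all genes were at an unadjusted p under 0.05. The slopes depended on the 0 h library, without which Id1 was at 0.55 (adjusted p = 0.810), Id2 at 0.71, Id3 at 0.55 and Bmp4 at -0.85.

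**Figure D3:**
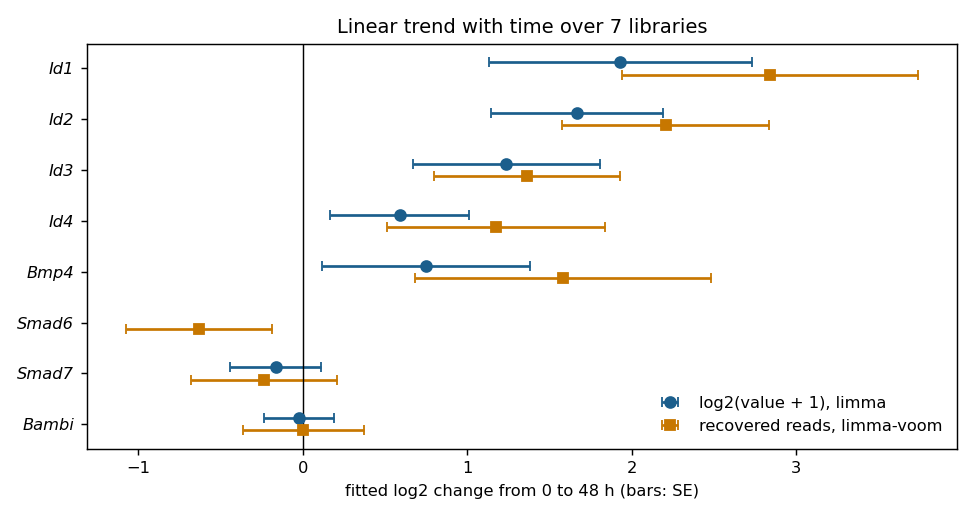
Fitted log2 change from 0 to 48 h (x axis) of each gene (y axis) over 7 libraries, as estimate and SE, on log2(value + 1) with limma (blue circles) and on recovered reads with limma-voom (orange squares). Id1 has the largest estimates, 1.93 and 2.84; Smad6 has no blue point because its mean value was under 1, and none of the estimates passed the test.

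The Id genes resembled each other unevenly. Over the 7 libraries Pearson's r of log2(value + 1) between pairs of Id genes ran from 0.60 (Id2 and Id3) to 0.90 (Id1 and Id2), and without the 0 h library from 0.12 to 0.98. The last of these was Id1 with Id4. Smad7 and Bambi correlated with each other at 0.85, with or without the 0 h library (0.84). With the 4 Id genes and Bmp4 they correlated at 0.08 to 0.65, and at -0.16 to 0.66 without the 0 h library. All points of these correlations share the same 7 libraries, and no p is given.

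Among the 2416 genes with a mean value of at least 5, those nearest to Id1 in pattern were Vim, the intermediate filament vimentin (r = 0.98), Ckap4 (0.97) and the tubulin Tubb2b (0.97). Vim was 26.1 (0 h), 61.3 (2 h), 36.5 (6 h) and 77.3 (48 h), and was also among the 3 nearest to Id4 (0.90), after Ubtf (0.91) and Agrn (0.90). Nearest to Id2 were Lin28a, a let-7-blocking RNA-binding protein (0.97), Nedd8 (0.97) and Pitrm1 (0.97), and to Id3 Cdc42se1 (0.99), Mrpl52 (0.99) and Rcc2 (0.97). Bmp4 was closest to Epop, a Polycomb-associated protein (0.96), the histone gene H2bc18 (0.95) and the actin cross-linker Flna (0.95). Smad7 was closest to the MAP kinase phosphatase Dusp1 (0.95), Tbx3 (0.93) and Enc1 (0.91), and Bambi to Nodal (0.98), Ulk1 (0.97) and Eif4ebp1 (0.97). Of the genes compared, 29 reached 0.9 with Id3, the most of the 7 members, and 3 did with Id4 and with Smad7.

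Levels of different genes were compared per kilobase of transcript, from recovered reads, on the assumption that these reads are exonic. Introns fill 95.7% of the Smad6 span and 84.9% of that of Smad7, and the sources used here do not say whether intronic reads were counted. On this scale Id3 was the most abundant member, with a mean over libraries of 34.2 reads per transcript kilobase, scaled to library size (14.0 to 57.5). Id2 (10.1, from 2.12 to 15.7), Bmp4 (9.79, from 1.35 to 18.6), Smad7 (9.23, from 5.35 to 12.3) and Id1 (8.75, from 1.03 to 20.4) followed. Bambi (3.11), Smad6 (2.73) and Id4 (2.18) were lowest. The ranges over libraries of neighbours in this order overlapped in every case, that of Id3 with Id2 between 14.0 and 15.7. The span used to recover Id3 reads, 1896 bases, was longer than its annotated gene. Its reads and level may therefore be too high, and its counting intervals too narrow.

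**Figure D4:**
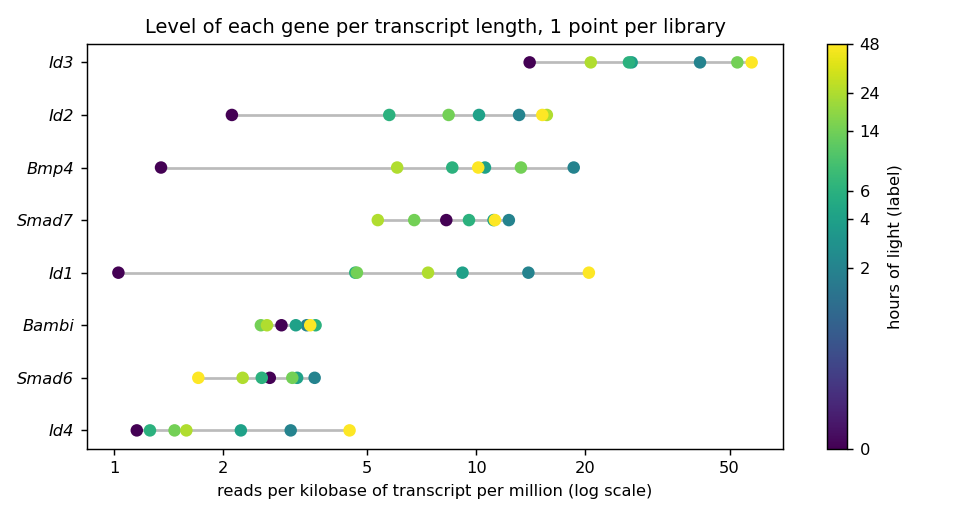
Reads per kilobase of transcript, scaled to library size (x axis, log scale) for each of the 8 genes (y axis, ordered by mean), 1 point per library coloured by labelled hours of light, with a grey line from the lowest to the highest. The darkest points, 0 h, lie at the left end for the 4 Id genes and Bmp4 and inside the range for Smad6, Smad7 and Bambi.

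The other genes of the pathway were followed by role. Of 16 further ligands, 1 was tested: Gdf3, a BMP and Nodal modulator of pluripotent cells, was 27.5 (0 h), 12.9 (4 h) and 47.4 (48 h) (1.05, limma adjusted p = 0.262). Bmp10 and Gdf2 were listed at 0 in every library. Of 11 receptors and co-receptors 3 were tested and 0 called in the trend test. The type I receptor Bmpr1a was 2.28 at 0 h and 0.846 at 48 h (-0.58, limma adjusted p = 0.230), Rgmb, a co-receptor, 1.17 and 3.27, and endoglin (Eng) between 0.381 and 2.62. Rgma, below the mean required, was at 0.154 and 2.10 at 0 and 48 h and passed on recovered reads (limma-voom adjusted p = 0.042); it was named after its values were seen.

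Signal transducers came next. Of 18 Smads and cofactors 9 were tested, 0 were called, 4 had a positive fitted change, and the median was -0.06. The largest fitted changes were those of the phosphatase Ctdsp1 (22.2, 47.9 and 23.8 at 0, 14 and 48 h), Smad2 (1.45 at 0 h, 0.840 at 48 h), the ubiquitin ligase Rnf111 (2.20 and 1.78) and Tob1 (15.5, 28.8 at 2 h, 17.5 at 48 h). The BMP-specific Smad1 lay between 0.487 and 0.709 and Smad5 between 0.404 and 0.836. Of the 9 tested, 0 were at least 2-fold higher or lower at 2 h than at 0 h. Over all genes 3.84% were higher and 3.80% lower by that measure, so 0 of 9 is near that share.

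Of 16 extracellular antagonists 3 were tested and 0 called in the trend test. Follistatin (Fst) was 0.623 (0 h), 1.40 (2 h), 0.915 (6 h) and 4.41 (48 h) (1.37, limma adjusted p = 0.106). Fstl1 was 0.638 at 0 h and 2.23 at 48 h (1.16, limma adjusted p = 0.053), and Twsg1, a chordin partner, 5.82 and 3.04. On recovered reads Fstl1 rose (limma-voom adjusted p = 0.009), as did Chrd, chordin, from 0.261 at 0 h to 3.26 at 48 h (adjusted p = 0.011), the latter named after its values were seen. Noggin (Nog) was 0.385 (0 h), 1.23 (2 h) and 0.902 (48 h) (not called, limma-voom adjusted p = 0.552).

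Other genes known to respond to BMP included some that were higher at 2 h with the Id genes. Of 18, 8 were tested and 0 called in the trend test, with a median fitted change of -0.55. Between 0 and 2 h, 4 of the 8 were at least 2-fold higher, beside the 3.84% of all genes. Gata2, a zinc-finger factor of the ventral and extraembryonic ectoderm, was 0.410 (0 h), 3.56 (2 h), 2.00 (4 h), 1.38 (6 h), 0.564 (14 h), 0.180 (24 h) and 0.585 (48 h). Its ratio of 2 h to 0 h was 8.70 (6.43 to 11.95), from about 236 and 53 reads, and its ratio of 48 h to 0 h was 1.43 (0.997 to 2.05), against 19.9 for Id1. Hey1 (1.30 to 4.17, ratio 3.22), Tfap2c (2.55 to 5.73, ratio 2.25) and Dusp9, an ERK phosphatase (6.10 to 12.7, ratio 2.08), made up the 4. Unlike the Id genes, Dusp9 was still at 13.1 at 6 h and lower than at 0 h from 14 h on (4.18, 2.42 and 3.28). Its fitted change was -1.57 (limma adjusted p = 0.202), the largest in size of the list. Between 24 and 48 h, Gata2 (3.25-fold), Hey1 (2.71-fold), Tfap2c (2.37-fold) and Tbx3 (2.00-fold) were higher, 4 of 8 again, beside the 7.58% of all genes. Msx2 fell short of 2-fold in both steps (1.25 and 1.69 at 0 and 2 h, 0.324 and 0.367 at 24 and 48 h). So did Hes1 (18.9 and 26.5, 20.9 and 26.1 at the same hours) and Junb. Junb was 3.65 (0 h), 6.28 (2 h), 15.3 (14 h), 5.90 (24 h) and 9.80 (48 h), with a fitted change of 1.17 (limma adjusted p = 0.187).

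**Figure D5:**
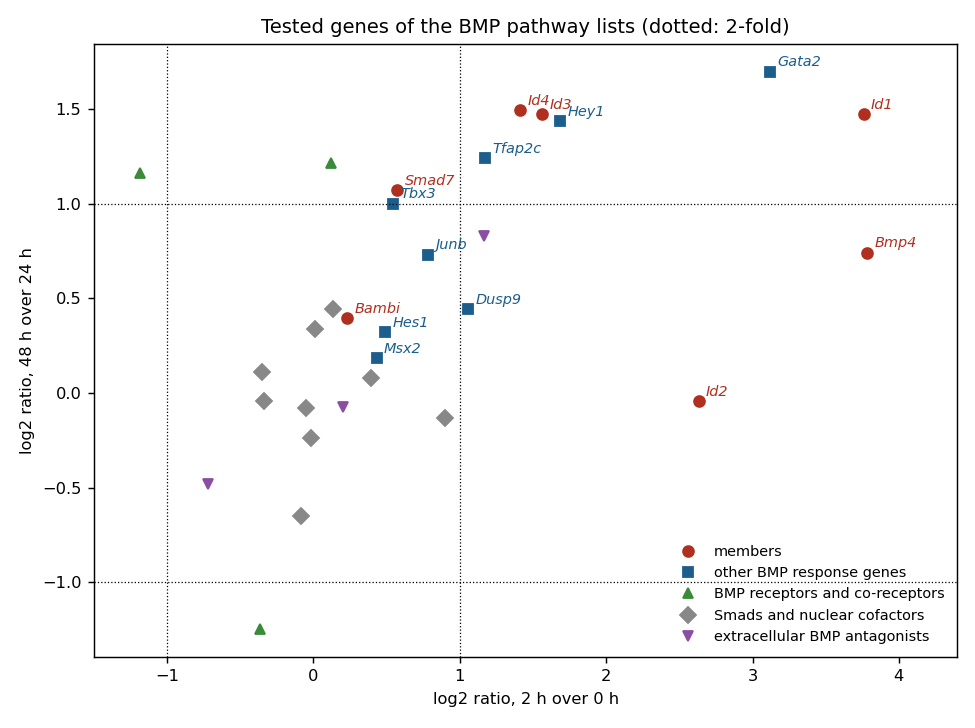
Log2 ratio of 2 h to 0 h (x axis) against log2 ratio of 48 h to 24 h (y axis) for the tested genes of the lists named in the key, 1 point per gene and 1 library per time; dotted lines mark 2-fold. Id1, Id3, Id4, Gata2, Hey1 and Tfap2c lie past 2-fold on both axes, and the 9 tested Smads and cofactors past it on neither. Of all genes, 3.84% (x axis) and 7.58% (y axis) were at least 2-fold higher.

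The partners that Id proteins hold back fell under the mean value required, on a scale that lowers genes with long introns. Tcf3, which encodes the E proteins E12 and E47, lay between 0.464 and 1.34 and Tcf12 between 0.134 and 0.314, and 0 of 3 E protein genes reached a mean value of 1. Tcf4 had about 184 to 641 reads, and in the fit on recovered reads 0 of 3 were called. Of 16 proneural genes 3 were tested, 1 rose and 0 fell, beside 0.296% of all genes called higher and 0.0622% lower. The one that rose was Neurod1, at 3.65 (0 h), 1.77 (2 h), 60.7 (24 h) and 43.6 (48 h), with a fitted change of 4.51 (limma adjusted p = 0.041). That call is lost with no filter on low values or with pseudocount 5, where 0 genes were called higher. With quantile normalization 1 gene was called higher, and whether it was Neurod1 is not given here. Neurog1 was 0.242 at 0 h and 4.61 at 48 h (2.42, limma adjusted p = 0.062), and Nhlh1 0.114 and 12.02 (2.73, limma adjusted p = 0.135). On recovered reads 5 were tested and 3 rose, beside 2.24% of all genes in that fit. These were Neurod1 (limma-voom adjusted p = 0.0075), Neurog1 (adjusted p = 0.027) and Nhlh1 (adjusted p = 0.031). Neurog1 and Nhlh1 were highest at 48 h and Neurod1 at 24 h.

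No other protein-coding gene overlapped the annotated span of a member. Long noncoding RNA genes overlap Id4 (1), Bmp4 (2) and Smad7 (1), and reads of these may be counted with them.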

How the data were processed

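Messenger RNA was sequenced in 7 libraries of mouse embryonic stem cells, 1 per time point. The submitters' processing notes name Bowtie2 and mm9; the sources used here do not give the counting method, the use of strand or the unit. The deposited signal is 1 number per RefSeq transcript and library, in 30673 rows: 3320 start-site rows at 0 throughout and 27353 transcripts, of which 27050 were named by accession with GRCm38.p6 and GENCODE M21 tables. Values multiplied by genomic span and a library factor gave approximate reads. Each factor was the one that put most low values (2 to 20 reads) within 0.1 of whole numbers. That share was 76.8% to 78.3%. A factor not searched for in this way would give 20%, so the share is no independent check. The row of highest mean was used per gene.

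Trends were fitted with limma 3.58.1 in R 4.3.3 on log2(value + 1) against log2(hours + 1), for genes of mean value at least 1, with 5 residual degrees of freedom; the design had also foreseen counts. It treats the 7 libraries as independent and was tested on simulated data. Ratios between libraries have no test; their 95% intervals come from exact binomial (Clopper-Pearson) bounds on reads and cover counting error only. The GC trend was a natural spline (5 degrees of freedom) over genes of mean at least 5. Limma-voom used genes with at least 10 reads in 3 libraries. Promoter sequences are RefSeq's, for 5 of the 8 members. Named genes were the members, up to 4 tested genes per list with the largest fitted changes and all called ones, Pou3f2, and the 3 genes nearest in pattern. Further genes, such as Hey1, Tfap2c, Tbx3, Smad1, Smad5 and Nog, were named for their ratios or their role. Members, lists, tests and rules were chosen with earlier results of these data known.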

Additional observations from a re-analysis of the deposited data

How the results depend on the processing

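Under the 18 alternatives of the trend test, 0 members were called up or down, and the lowest adjusted p of a member was 0.063. Of 122 fitted changes of members, 112 kept their direction and 10 reversed. Bambi, at -0.02 in the main fit, reversed under 7 of 17 alternatives. It was 0.00138 with quantile normalization, 0.0201 with linear hours, 0.24 with the GC trend removed and 0.0033 on recovered reads. Leaving out each library in turn, fitted changes ran from -0.18 to 0.0545 for Bambi, from -0.50 to 0.0324 for Smad7, from -0.0725 to 0.85 for Id4 and from -0.85 to 1.24 for Bmp4, lowest for Bmp4 without the 0 h library and for Id4 without the 48 h library. Counts over all genes moved more: those called higher and lower, 19 and 4, were 1 and 0 with quantile normalization, 0 and 0 with no filter on low values or with pseudocount 5, 36 and 7 with pseudocount 0.1, 163 and 28 with linear hours, 304 and 110 on recovered reads, and 10 called higher with the GC trend removed. Genes called lower were 1 with a mean of at least 5, 26 with a step between 6 and 14 h and 8 with summed transcript rows. Without single libraries they ran from 1 to 55 and from 0 to 25. Added after seeing the data were other scalings of the ratios. Of the members at least 2-fold lower at 6 h than at 2 h, 4 as deposited, 2 were left with the GC trend removed and 1 with 1 added to each value, and at 24 h against 14 h 1 with 1 added. The causes were not tested. No paired analysis was possible because each time has 1 library. Depth limits Id1 at 0 h, with about 14 reads, and Smad6.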

Other observations

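Other genes stood beside Bmp4 and Id1 at the top of the ratio of 2 h to 0 h, and are given as values named after they were seen. Bhlhe40, a basic helix-loop-helix repressor, was 1.24 at 0 h and 14.2 at 2 h (11.5-fold, about 116 and 681 reads). The thyrotropin-releasing hormone gene Trh was 6.16 and 67.0 (10.9-fold), and Spry4, a feedback inhibitor of receptor tyrosine kinase signals, 0.381 and 3.76 (9.88-fold, about 86 and 435 reads). Gli1, a target of Hedgehog signals, was 0.511 and 3.34 (6.54-fold), and Lin28a 1.99 and 13.7 (6.88-fold). With 1 library at each time none of these ratios has a replicate check.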
